A study of Caenorhabditis elegans with 24 samples.

Results

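The comparison described here is the interaction of DAF-16 with cell type under reduced insulin/IGF-1 signalling (IIS) in *Caenorhabditis elegans*. For each gene, *daf-16(lf); daf-2(lf)*, the double mutant, was first subtracted from *daf-2(lf)* in muscle cells. The same difference in all cells was then subtracted from that, with every level on the log2(TPM + 1) scale, where TPM is the share of a library that a transcript takes after correction for its length. A positive interaction means that the difference in muscle cells lay above the difference in all cells, and a negative one that it lay below. The comparison used 12 of the 24 libraries, 3 in each of 4 groups: muscle cells of *daf-2(lf)*, muscle cells of the double mutant, all cells of *daf-2(lf)* and all cells of the double mutant. It asks which genes depend on DAF-16 to a different extent in body wall muscle than in the animal at large.

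Both strains carried the loss-of-function allele *daf-2(e1370)*, the double mutant carried *daf-16(mu86)* as well, and both had a GFP marker in body wall muscle. Both were reared at a permissive temperature until the last larval stage, shifted up to lower IIS, and dissociated from synchronized populations of young adults, each genotype being a single strain. Muscle cells were live cells gated for GFP. The all cells libraries came from live cells sorted without the GFP gate, so they hold muscle cells as well. The *daf-16* lesion was present in every cell of the double mutant, so the difference in sorted muscle is that of animals without DAF-16 in any tissue. In bulk RNA, a difference in the number of cells of a type and a difference in RNA per cell cannot be told apart.

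As background, DAF-2 is the insulin/IGF-1 receptor of the worm, and its signal through phosphoinositide 3-kinase and Akt kinases keeps the FOXO transcription factor DAF-16 in the cytoplasm. When DAF-2 activity falls, DAF-16 enters nuclei, genes for stress resistance, metabolism and antimicrobial defence are raised, and others, yolk protein genes among them, are lowered. DAF-16 acts in several tissues, and the intestine is the best known of them.

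The genotype labels of the all cells libraries were checked on *daf-16* itself. Of its 14 transcripts, 5 were listed at 0 in all *daf-16(lf)* and double mutant muscle libraries and above 0 in some wild-type or *daf-2(lf)* one. These 5 were picked by that rule, so their 0 in double mutant muscle cells was fixed in advance and checks no label. The summed level of these 5 was 19.8 to 38 TPM in *daf-2(lf)* muscle cells, against 0 in double mutant muscle cells, and 16 to 32.3 TPM in *daf-2(lf)* all cells, against 0 in double mutant all cells. In wild-type muscle cells the sum was lower, at 2.58 to 3.89 TPM. The libraries labelled wild-type all cells, which belong to none of these 4 groups but enter the estimate of the spread, had 0, against their label. Those libraries listed 9200 to 16490 genes above 0. Leaving them out gave 133 genes past the threshold, the same number as with them. All 4 all cells libraries of *daf-2(+)* animals looked like muscle by body wall muscle sums (50360 to 99383 TPM) and intestine sums (154.6 to 265.6 TPM). Other markers differed: in *daf-16(lf)*, pharyngeal muscle markers summed to 228.3 to 358.4 TPM in all cells, against 33.8 to 112 TPM in muscle cells. Hypodermis markers summed to 1982 to 2355 TPM there, against 49.2 to 1983 TPM. In libraries labelled wild-type all cells both sums overlapped those of wild-type muscle cells. With only the 12 libraries compared here in the model, 76 genes passed. The summed level of 10 body wall muscle markers was 35694 to 44711 TPM in *daf-2(lf)* muscle cells, against 32295 to 37607 TPM in double mutant muscle cells. In all cells the sum was 5081 to 5700 TPM in *daf-2(lf)*, against 4787 to 5603 TPM in the double mutant. The 10 intestine markers summed to 100.9 to 225.9 TPM in muscle cells of *daf-2(lf)* and 98.2 to 260.2 TPM in those of the double mutant, against 3857 to 4579 TPM and 4220 to 5482 TPM in the all cells groups of the 2 genotypes. No marker gene of any cell type passed the threshold in the interaction, where 0.904% of all genes tested did. With so few markers this cannot show that the cell types were balanced. The mean interaction was -0.14 for body wall muscle, 0.54 for intestine, -0.10 for hypodermis and -0.63 for pharyngeal muscle markers. It was -0.56 for neurons, -0.64 for germline and oocytes, -0.04 for sperm, -0.47 for coelomocytes and 0.22 for somatic gonad. Fewer genes were listed above 0 in muscle cells (12464 to 16149 in *daf-2(lf)*, 15326 to 17275 in the double mutant) than in all cells (18275 to 19175 and 18225 to 18823), and the sequencing depth behind a TPM value is unknown.

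Of 14717 genes tested, 133 (0.904%) passed an adjusted p of 0.05 in the interaction by limma with Benjamini-Hochberg adjustment, and 700 had an unadjusted p under 0.05. The interaction was negative for 113 of them (0.768% of the genes tested) and positive for 20 (0.136%). Genes for secreted proteins of the SCP-like family (*scl-11*, *scl-12*, *scl-13*), the saposin-like gene *spp-29* and several short genes with no assigned function were among the 15 negative interactions of largest size, and the collagen gene *col-108*, the lectin gene *clec-101* and the aspartyl protease gene *asp-9* were negative too. The lectin genes *clec-26* and *clec-28*, the CUB-like gene *dod-22* and the insulin-like ligand *ins-7* were among the positive ones. All 113 negative genes had a positive estimate in all cells, so they were higher in *daf-2(lf)* than in the double mutant there, and 105 of them passed the threshold of that difference. Over all genes tested, 2.43% passed in all cells, 1.72% with a positive and 0.713% with a negative estimate. The interaction includes the all cells difference, so the count of 105 follows in part from the selection. In muscle cells 8 of the 113 passed, 3 with a positive and 5 with a negative estimate, where 0.612% of all genes tested passed, 0.313% and 0.299% by direction. In 106 of the 113 the estimate was of larger size in all cells, and in 7 it was of larger size, and of opposite sign, in muscle cells. Among the 20 positive genes, 18 had a negative estimate of larger size in all cells and 2, *F55B12.10* and *skr-21*, a positive estimate of larger size in muscle cells. The median interaction of all 14717 genes was -0.15, and it was -0.01 with median-of-ratios scaling and 0.02 with quantile normalization. Single genes moved more than the median with the scaling. Of the 43 genes past the threshold that the rule for named genes picked, quantile normalization ended 19 calls and moved values by a median of 0.72 and by up to 1.44, and median-of-ratios scaling ended 6 calls and moved values by a median of 0.72 and by up to 1.21.

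**Figure D1:**
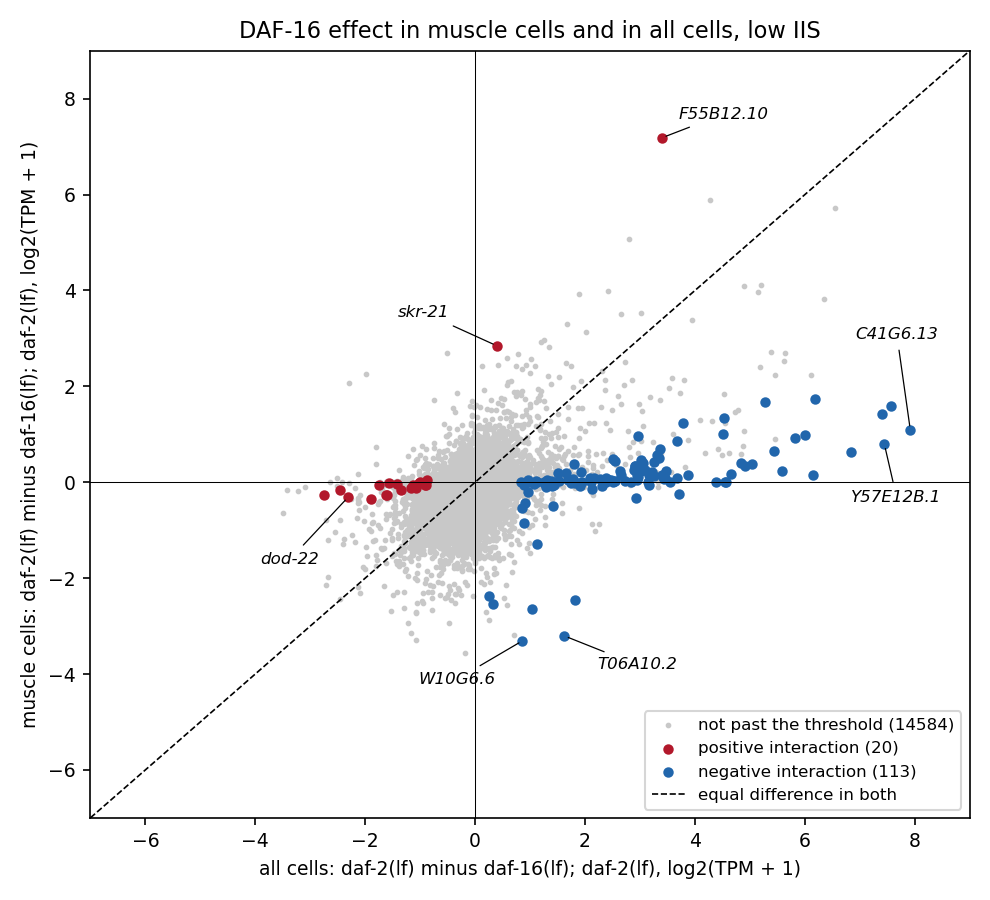
*daf-2(lf)* minus double mutant in muscle cells (y axis) against the same difference in all cells (x axis), both on the log2(TPM + 1) scale, 1 point a gene, with the 20 positive and 113 negative interactions coloured and the dashed line marking equal differences. Most coloured points lie along the horizontal line at 0, to the right for negative and to the left for positive interactions, while *F55B12.10*, *skr-21*, *T06A10.2* and *W10G6.6* stand away from it.

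How low the muscle values were bears on every count given here. Of the 113 negative genes, 83 (73.5%) were under 1 TPM in all 6 muscle libraries of the 2 genotypes and 12 were listed at 0 in all 6, whereas 20.4% of the genes tested were under 1 TPM in all 6. For such a gene the muscle difference cannot leave the range between -1 and 1 on this scale, so its interaction was set mainly by all cells. With a pseudocount of 0.1 in place of 1, which allows low values to differ more, 61 negative genes and 1 positive gene passed the threshold, and all 62 were among the 133. Of the 43 named genes past the threshold, 22 lost their calls with it, among them every named positive gene except *clec-3*. The *clec-3* call was lost with quantile normalization instead (0.47, limma adjusted p = 0.913). With the replicate number as a block within genotype, 97 negative and 12 positive genes passed. The level in *daf-2(lf)* muscle cells was a median of 1.28% of that in *daf-2(lf)* all cells over the 113 negative genes (quartiles 0.534% and 2.78%), against 21.9% over all genes tested. The same share was a median of 3.00% over the 10 intestine markers, 3.14% over the 6 hypodermis markers, 23% over the 10 neuron markers and 628% over the 10 body wall muscle markers. The 113 genes were called on these same values, so their low share follows in part from the selection. Where in the animal they were expressed was not tested.

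Most negative genes were low in the 3 groups other than *daf-2(lf)* all cells. Their median level was 0.129 TPM in *daf-2(lf)* muscle cells, against 0.0271 TPM in double mutant muscle cells, and 8.71 TPM in *daf-2(lf)* all cells, against 0.292 TPM in double mutant all cells. The mean in double mutant all cells was under 1 TPM for 94 of the 113, and for 92 no library of *daf-2(+)* animals reached 1 TPM. The filter asked for 1 TPM in 3 libraries, which the 3 *daf-2(lf)* all cells libraries could meet alone. A gene seen only there could thus enter the test, so low levels elsewhere follow in part from the filter and the selection. The *daf-2(lf)* all cells libraries lay above the double mutant ones without overlap for 106 of the 113, where 7.62% of all genes tested did so. The 113 were called on these same libraries, so this count is no separate evidence. The interactions ranged from -0.84 to -6.83, with a median of -2.62.

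The SCP-like extracellular proteins are secreted proteins of the CAP superfamily, whose roles in the worm are mostly unknown. *scl-12* (WBGene00019178, chromosome V, 3812591 to 3813437 in WBcel235) was at 0.324, 0.555 and 0.976 TPM in *daf-2(lf)* muscle cells, against 0, 0.0414 and 0.0527 TPM in double mutant muscle cells. In all cells it was at 206, 38.8 and 186 TPM in *daf-2(lf)*, against 0, 0 and 0.0374 TPM in the double mutant. The 3 *daf-2(lf)* all cells libraries stood far above the other 9, and the interaction was -6.20 (SE 0.53, limma adjusted p = 2.75e-07). *scl-13*, its neighbour on chromosome V (3810785 to 3811641), had 76.3, 28.1 and 116 TPM in *daf-2(lf)* all cells, against 0 in all 3 double mutant all cells libraries, with 2.42, 0.648 and 0.514 TPM in *daf-2(lf)* muscle cells (interaction -5.01, SE 0.48, limma adjusted p = 1.04e-06). *scl-11*, on chromosome IV (13051373 to 13052219), had 90.1, 15.9 and 74.1 TPM in *daf-2(lf)* all cells, against 0, 0 and 0.0377 TPM in double mutant all cells, and no more than 0.410 TPM in any muscle library (interaction -5.35, SE 0.52, limma adjusted p = 1.27e-06). In each of the 3 genes *daf-2(lf)* all cells replicate 2 was the lowest of its group and still above every double mutant library. The family was counted only after its values were seen: 3 of its 11 members tested were negative, 0 positive, and the median of the 11 was -0.54. Over all genes tested 0.768% were negative.

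Saposin-like proteins bind lipids, and several of them are antimicrobial in the worm intestine. Of 28 tested, 3 were negative and 0 positive, with a median of -0.53, where 0.768% of all genes tested were negative. The negative count was 1 with quantile normalization, with a minimum of 4 TPM and with only the 12 libraries, and 5 with array weights and without *daf-2(lf)* all cells replicate 2. *spp-29* (V, 17696125 to 17696853) was listed at 0 in all 9 libraries other than *daf-2(lf)* all cells, which had 25.4, 12.5 and 36.8 TPM (interaction -4.57, SE 0.43, limma adjusted p = 8.81e-07). Among these 12 libraries it was thus seen in a single group. *spp-20* had 2.26, 9.22 and 22.5 TPM in *daf-2(lf)* all cells, against 0, 0.0984 and 0 TPM in double mutant all cells, and was at 0 in all *daf-2(lf)* muscle libraries (interaction -3.21), though it overlaps *twk-10* on the opposite strand, whose reads may not be separable. *spp-11* had an interaction of -2.21, from 2.81, 2.26 and 10.1 TPM in *daf-2(lf)* all cells, against 0, 0.0894 and 0.119 TPM in double mutant all cells. Both *spp-20* and *spp-11* lost their calls with quantile normalization and with only the 12 libraries.

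C-type lectins bind carbohydrates and many of them change with infection. Among 100 tested, 3 were negative (*clec-101*, *clec-249* and *clec-76*) and 4 positive, with a median of 0.18. Of all genes tested, 0.768% were negative and 0.136% positive. Over the alternatives the negative count ranged over 1 to 6 and the positive count over 1 to 10. Without *daf-2(lf)* all cells replicate 2 the positive count was 6. *clec-101* (chromosome I) had 3.95, 31.1 and 21 TPM in *daf-2(lf)* all cells, against 0.0494, 0.0168 and 0.0480 TPM in double mutant all cells, and 0, 0.0913 and 0.296 TPM in *daf-2(lf)* muscle cells, against 0, 0 and 0.0225 TPM in double mutant muscle cells (interaction -3.72, SE 0.55, limma adjusted p = 0.000395). *clec-249* had an interaction of -2.81; another gene of the same name is in the annotation, and reads may be split between them. *clec-76*, with -1.48, had 7.28, 6.8 and 11.4 TPM in *daf-2(lf)* all cells, against 3.47, 1.83 and 2.22 TPM in double mutant all cells, so it was detected without DAF-16, and its limma adjusted p of 0.00473 was 0.0688 with the replicate block within genotype. With quantile normalization the clec-101 interaction was -2.45 (adjusted p = 0.176) and the clec-249 interaction -1.37 (adjusted p = 0.207).

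*asp-9*, an aspartyl protease, had 5.67, 9.93 and 29.1 TPM in *daf-2(lf)* all cells, against 0.141, 0.399 and 0.0458 TPM in double mutant all cells, and no more than 0.232 TPM in any muscle library (interaction -3.36, SE 0.44, limma adjusted p = 7.06e-05). *col-108* (IV, 1768588 to 1769702), a cuticle collagen, had 23.2, 24.5 and 67.6 TPM in *daf-2(lf)* all cells, against 0.218, 0.400 and 0.530 TPM in double mutant all cells. Its muscle libraries overlapped, at 0.276, 0.121 and 0.691 TPM in *daf-2(lf)* and 0.0237, 0.188 and 0.418 TPM in the double mutant, and the interaction was -4.50 (SE 0.41, limma adjusted p = 7.6e-07). It was the only 1 of 154 collagens tested to pass (0.649%, against 0.904% of all genes tested), with 0 positive and a median of -0.33. Still, 7 collagens were negative with only the 12 libraries and 3 each with array weights and without a filter. *cut-1*, a cuticlin of the larval cuticle, had an estimate as large, -4.57 (SE 1.09), but its limma adjusted p of 0.0473 was lost in 17 of 23 alternatives, and it reached 14.1 TPM in a library of *daf-2(+)* animals.

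Other negative genes encode enzymes and transporters. *nnt-1*, the mitochondrial nicotinamide nucleotide transhydrogenase and a gene of the list raised by DAF-16 in whole animals, had 22.8, 6.76 and 16.8 TPM in *daf-2(lf)* all cells, against 1.64, 1.28 and 1.78 TPM in double mutant all cells. Its muscle levels were 0.254, 0.135 and 0.170 TPM in *daf-2(lf)* and 0.117, 0.0735 and 0.321 TPM in the double mutant, which overlap (interaction -2.52, SE 0.40, limma adjusted p = 0.000758; *C15H9.9* overlaps it on the opposite strand). *gst-29*, a glutathione S-transferase, had 12.5, 7.82 and 13.9 TPM in *daf-2(lf)* all cells, against 0.618, 0.463 and 0.411 TPM in double mutant all cells (interaction -2.55). It was 1 of 40 glutathione S-transferases tested to pass (2.5%, against 0.904% of all genes tested). With a pseudocount of 0.1 the limma adjusted p was 0.325 for *nnt-1* and 0.377 for *gst-29*. *cyp-33B1*, a cytochrome P450, passed as 1 of 51 of its list, or 1.96% (-1.51, limma adjusted p = 0.00822, and 0.0663 with the replicate block within genotype). *lipl-4*, a lysosomal lipase known for its role in the long life of germline-less worms, had 3.64, 1.82 and 5.62 TPM in *daf-2(lf)* all cells, against 0.534, 1.12 and 0.507 TPM in double mutant all cells. Its interaction of -1.36 (limma adjusted p = 0.0316, and 0.132 with the block within genotype) was past the threshold in 6 of 22 alternatives. *smf-2*, a metal transporter of the NRAMP family, *catp-2*, a P-type ATPase, *tyr-3*, a tyrosinase, and *cest-1.1*, a carboxylesterase, were named after their values were seen. Their interactions were -2.38, -2.10, -1.76 and -2.40.

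Among genes of regulation, *nhr-155* was the only 1 of 164 nuclear hormone receptors tested to pass: it had 3.99, 9.37 and 10.205 TPM in *daf-2(lf)* all cells, against 0.131, 0.133 and 0.0635 TPM in double mutant all cells, and 0.528, 0.199 and 0.138 TPM in *daf-2(lf)* muscle cells, against 0, 0 and 0.0224 TPM in double mutant muscle cells (interaction -2.57, SE 0.29, limma adjusted p = 9.02e-06). Of the receptors tested 0.610% passed, against 0.904% of all genes tested. With quantile normalization the nhr-155 interaction was -1.13 (adjusted p = 0.139). *hda-5*, a histone deacetylase gene picked after its values were seen, had 12.9, 7.60 and 11.4 TPM in *daf-2(lf)* all cells, against 3.21, 2.95 and 4.15 TPM in double mutant all cells, with no muscle library above 0.209 TPM (interaction -1.36, limma adjusted p = 0.00822). The *pals* genes, a family that includes regulators of the response to intracellular pathogens, were also looked at afterwards. *pals-26*, *pals-39* and *pals-33* were negative at -2.39, -2.27 and -1.38, which made 3 of 16 tested, where 0.768% of all genes tested were negative. Over the alternatives the count ranged over 0 to 5, and it was 0 with a minimum of 4 TPM.

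**Figure D2:**
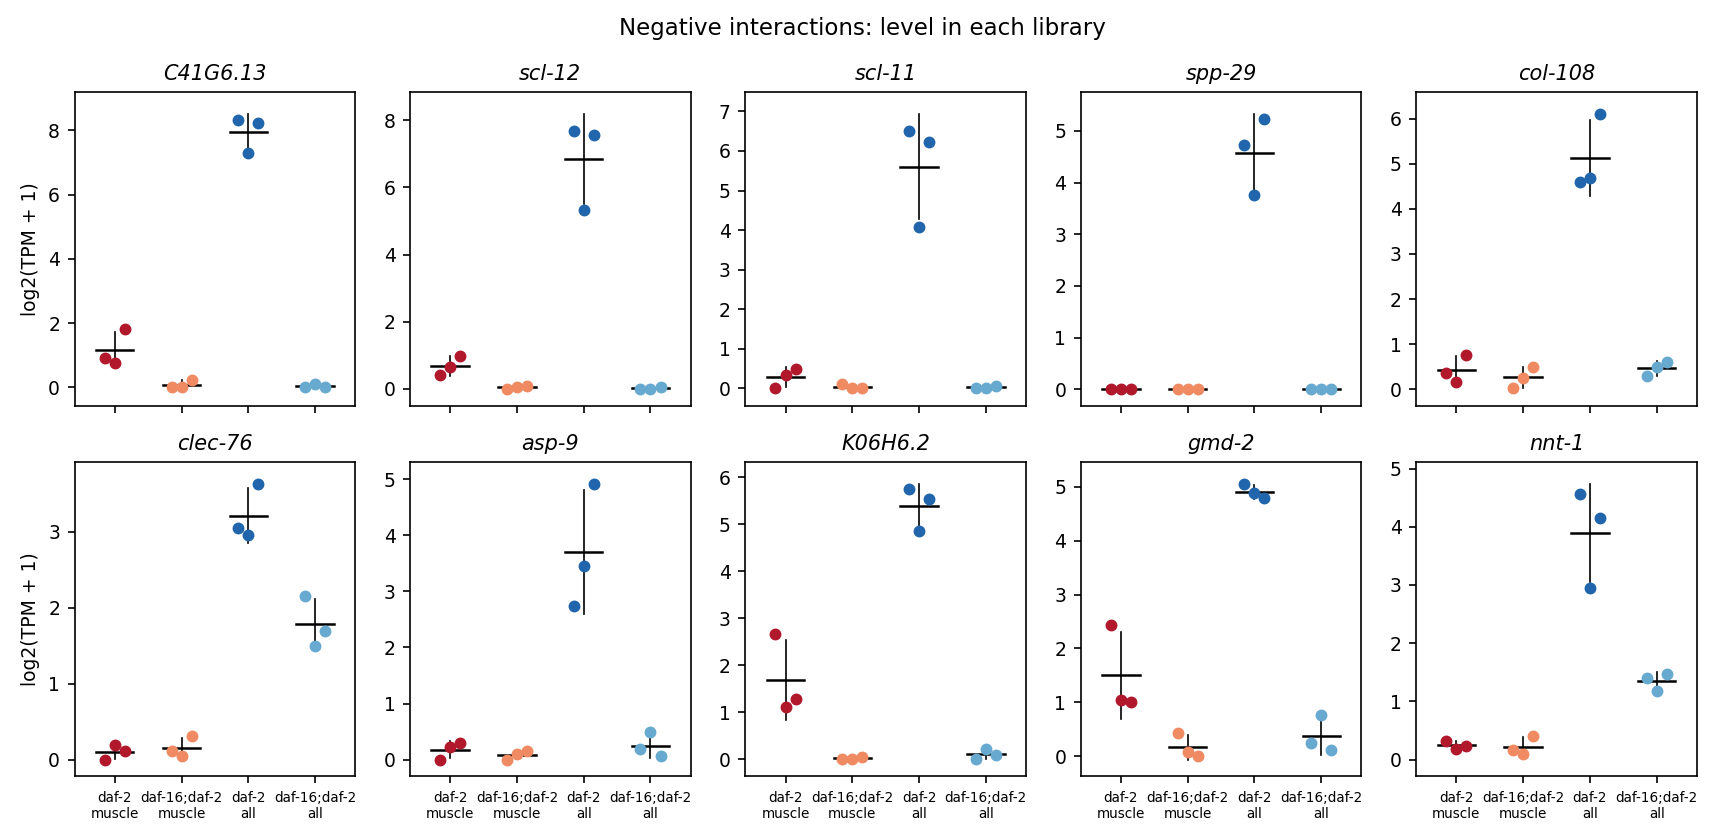
Levels of 10 genes with a negative interaction, on the log2(TPM + 1) scale, in muscle cells of *daf-2(lf)* and of the double mutant (marked daf-16;daf-2) and in all cells of *daf-2(lf)* and of the double mutant (points are libraries, thick lines means, thin lines SD, n = 3 each). In all 10 panels the *daf-2(lf)* all cells libraries lie above the other groups, and *K06H6.2* and *gmd-2* also show a step between the muscle groups.

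Several of the negative interactions of largest size belong to genes without an assigned function. *C41G6.13* (WBGene00008059, V, 15208422 to 15209332) had 0.899, 0.709 and 2.52 TPM in *daf-2(lf)* muscle cells, against 0, 0 and 0.184 TPM in double mutant muscle cells. In all cells it had 320.3, 157 and 297 TPM in *daf-2(lf)*, against 0, 0.0685 and 0 TPM in the double mutant. The groups did not overlap in either cell type, and the interaction was -6.83 (SE 0.37, limma adjusted p = 4.41e-10). The annotation calls it *Y75B12B.8*, a name that another gene also bears, so its share of reads is uncertain. *Y57E12B.1* (V, 6948525 to 6948874) had 63.5, 361 and 227 TPM in *daf-2(lf)* all cells, against 0 in all double mutant all cells libraries, and 0, 4.14 and 0 TPM in *daf-2(lf)* muscle cells (-6.66, SE 0.98, limma adjusted p = 0.000339). *Y60C6A.3* and *Y60C6A.2*, which lie side by side on chromosome V, had -5.97 each. *Y71F9AM.8* (-6.01, overlapping *cogc-3* on the opposite strand), *F20E11.17* (-4.90), *F57F4.2* (-4.78), *ZK355.3* (-4.66) and *C06H5.11* (-4.55) were also among the 15 of largest size. Of the 113 negative genes, 26 (23%) had a longest transcript under 320 bases, against 3.72% of all genes tested. TPM of very short transcripts rests on an effective length that is hard to estimate, and the part of this in the counts was not tested.

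In muscle cells the estimate was above 0, as in all cells, for 74 of the 113 negative genes and below 0 for 27. The *daf-2(lf)* muscle libraries lay above the double mutant ones without overlap for 26 of the 113 (23%), where 2.64% of all genes tested did so. Only 4 reached 1 TPM in all 3 *daf-2(lf)* muscle libraries: *Y60C6A.3*, *ZK355.8*, *K06H6.2* and *gmd-2*, and *ZK355.8* overlapped between the muscle groups. *K06H6.2* (V, 585772 to 587336) had 5.35, 1.15 and 1.44 TPM in *daf-2(lf)* muscle cells, against 0, 0 and 0.0322 TPM in double mutant muscle cells, and it had 53, 28.1 and 45.6 TPM in *daf-2(lf)* all cells, against 0, 0.167 and 0.0685 TPM in double mutant all cells. Its muscle difference of 1.67 passed the threshold by itself (limma adjusted p = 0.0149), and the interaction was -3.61 (SE 0.46, limma adjusted p = 5.84e-05). *gmd-2*, a GDP-mannose dehydratase of fucose synthesis, had 4.40, 1.07 and 1.02 TPM in *daf-2(lf)* muscle cells, against 0.351, 0.0521 and 0 TPM in double mutant muscle cells, beside 32.1, 28.3 and 26.6 TPM in *daf-2(lf)* all cells, against 0.194, 0.706 and 0.0784 TPM in double mutant all cells (-3.19, SE 0.50, limma adjusted p = 0.000628). In both genes replicate 1 was the highest *daf-2(lf)* muscle library. The same library had the highest sums of intestine markers (225.9 TPM, against 100.9 and 106 TPM in replicates 2 and 3) and of hypodermis markers (135, against 56.3 and 48.8 TPM), and their part in these muscle levels was not tested.

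The negative genes clustered along the genome. Of the 113, 57 (50.4%) lay on chromosome V, which holds 20.4% of the genes tested, while 3 (2.65%) lay on chromosome III, which holds 15.4%. Another negative gene started or ended within 10000 bases for 33 of the 112 with a position (29.5%), where 2.15% of all genes tested had such a neighbour. At V, 539460 to 553167, all 5 genes tested were negative, *nhr-155* and the uncharacterized *C14C6.3*, *C14C6.6*, *C14C6.7* and *C14C6.8*. *C14C6.6* had 0.360, 0.154 and 0.113 TPM in *daf-2(lf)* muscle cells, against 0.0116, 0 and 0 TPM in double mutant muscle cells, beside 6.54, 5.73 and 7.76 TPM in *daf-2(lf)* all cells, against 0.0107, 0.0109 and 0.0519 TPM in double mutant all cells (-2.63, SE 0.17, limma adjusted p = 5.82e-09). The 3 *daf-2(lf)* all cells libraries stood far above the other 9. At V, 579277 to 595677, all 6 genes tested were negative: *K06H6.4*, *nstp-7*, of the nucleotide-sugar transporter family, *K06H6.2*, *K06H6.1*, *ZK488.6* and *ZK488.5*. Levels differed along this stretch, with *K06H6.1* at 26.8, 18.3 and 24.2 TPM and *K06H6.4* at 1.09, 1.01 and 1.44 TPM in *daf-2(lf)* all cells, yet the highest double mutant all cells value among the 6 was 0.167 TPM. Smaller groups were *Y57E12B.4*, *Y57E12B.1* and *Y57E12B.11* (3 of 3 tested), *F47B8.13*, *F47B8.14* and *F47B8.18* (3 of 5) and 8 pairs. Similarity of sequence between neighbours was not examined, so reads shared among copies may be part of these groups.

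**Figure D3:**
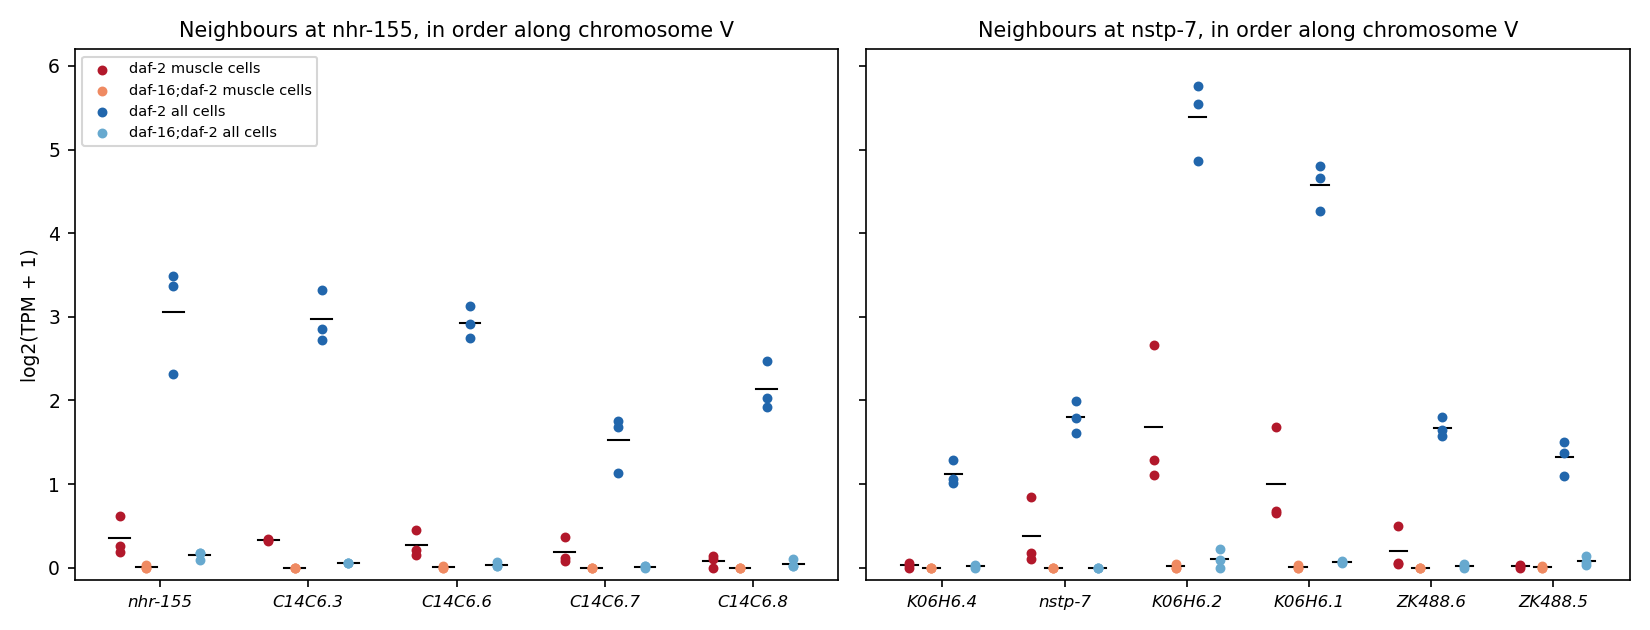
Levels of the 5 neighbouring genes at *nhr-155* (left) and the 6 at *nstp-7* (right), in their order along chromosome V, on the log2(TPM + 1) scale (points are libraries, lines means, n = 3 in each of the 4 groups). For every gene the *daf-2(lf)* all cells libraries stand above the other 9.

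The 7 negative genes with the larger estimate in muscle cells were higher in double mutant muscle than in *daf-2(lf)* muscle, and were named after their values were seen, apart from *T06A10.2*. They were *T06A10.2*, *W10G6.6*, *sru-40*, *C43C3.4*, *C03B8.2*, *Y38F2AL.12* and *C04H4.1*. All 7 reached 1 TPM in every double mutant muscle library. *T06A10.2* (IV, 16895588 to 16896203) was at 0 in all 3 *daf-2(lf)* muscle libraries and at 11.9, 2.83 and 14.9 TPM in double mutant muscle cells, beside overlapping levels of 14.5, 7.59 and 15.2 TPM in *daf-2(lf)* all cells, against 6.87, 8.32 and 0 TPM in double mutant all cells. Its interaction was -4.83 (SE 0.81, limma adjusted p = 0.0015, and 0.0663 with the replicate block within genotype). *W10G6.6* (X, 16247684 to 16250779) had 0, 1.67 and 3.18 TPM in *daf-2(lf)* muscle cells, against 27, 9.73 and 35.1 TPM in double mutant muscle cells, beside 3.20, 1.39 and 1.4 TPM in *daf-2(lf)* all cells, against 3.01, 0 and 0 TPM in double mutant all cells (-4.17, SE 0.74, limma adjusted p = 0.00242). In this gene the double mutant muscle libraries were the highest of all 12. *sru-40* (V, 9832646 to 9834000), a gene of the serpentine chemoreceptor superfamily, had 0, 0.0435 and 0.779 TPM in *daf-2(lf)* muscle cells, against 12, 4.77 and 3.03 TPM in double mutant muscle cells, and its all cells levels were 0.783, 2.40 and 24.9 TPM in *daf-2(lf)*, against 0, 1.33 and 0.557 TPM in the double mutant (-4.26, SE 0.88, limma adjusted p = 0.0124). *Y38F2AL.12* was at 0 in all *daf-2(lf)* muscle libraries and at 4.86, 4.82 and 3.06 TPM in double mutant muscle cells (-2.62, limma adjusted p = 0.00233). *C43C3.4* (-3.68), *C03B8.2* (-2.86, a pseudogene overlapping *C03B8.3* on the same strand) and *C04H4.1* (-2.40) had the same shape. All but *sru-40* have a longest transcript under 320 bases. Over all genes tested, *daf-2(lf)* lay below the double mutant in muscle without overlap in 9.79%, and 12464 to 16149 genes were listed above 0 in *daf-2(lf)* muscle cells, against 15326 to 17275 in double mutant muscle cells. The part of these in the zeros of *daf-2(lf)* muscle was not tested.

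Only *F55B12.10* and *skr-21* had a positive interaction with the larger estimate in muscle. *F55B12.10* (WBGene00077439, V, 13839733 to 13840491), an uncharacterized gene with a transcript of 252 bases, had 487.9, 125 and 619 TPM in *daf-2(lf)* muscle cells, against 0, 1.53 and 3.90 TPM in double mutant muscle cells. It was also raised in all cells, at 147, 36.9 and 166 TPM in *daf-2(lf)*, against 4.27, 13 and 9.68 TPM in the double mutant. Its estimates were 7.19 in muscle cells and 3.40 in all cells, and the groups overlapped in neither. Its interaction of 3.78 (SE 0.88, limma adjusted p = 0.0372) rested on single libraries: it stayed past the threshold in 12 of 23 alternatives and lost it when any of 7 of the 12 libraries was left out, with adjusted p up to 0.431 across all alternatives. *skr-21* (WBGene00004827, X, 13226134 to 13226664), a Skp1-related gene whose family provides adaptors of SCF ubiquitin ligases, had 12.68, 4.53 and 13.3 TPM in *daf-2(lf)* muscle cells, against 0.387, 0.358 and 0.553 TPM in double mutant muscle cells. In all cells it had 4.39, 4.92 and 6.38 TPM in *daf-2(lf)*, against 3.80, 3.87 and 3.41 TPM in the double mutant. The muscle difference was 2.84 (limma adjusted p = 0.000178) and the all cells difference 0.40 (adjusted p = 1), and the interaction was 2.45 (SE 0.52, limma adjusted p = 0.0177). It was the only gene of the 133 with a positive interaction, a muscle difference past the threshold and an all cells difference that did not pass. Leaving out *daf-2(lf)* muscle replicate 1 or 3 or double mutant muscle replicate 2 ended the call, and it was past the threshold in 18 of 23 alternatives, with adjusted p up to 0.245.

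The other 18 positive genes were lower in *daf-2(lf)* than in the double mutant in all cells, and all 18 were under 1 TPM in each of the 6 muscle libraries. Over the 20 positive genes the median level was 0.0232 TPM in *daf-2(lf)* muscle cells, against 0.110 TPM in double mutant muscle cells, and 0.786 TPM in *daf-2(lf)* all cells, against 4.34 TPM in double mutant all cells. The all cells libraries of the 2 genotypes did not overlap in any of the 20, where *daf-2(lf)* lay below the double mutant in 7.66% and above it in 7.62% of all genes tested. In the double mutant the level in muscle cells was a median of 2.58% of that in all cells (33.4% over all genes tested, 2.61% over the intestine markers). These 20 genes were called on the same values, so neither their lack of overlap nor this share is separate evidence. For 17 of the 20 no library of *daf-2(+)* animals reached 1 TPM, and 3 libraries of a single group could meet the filter alone.

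*dod-22* (IV, 12965374 to 12967392), a CUB-like gene named for acting downstream of DAF-16, had 0, 0.0351 and 0.0842 TPM in *daf-2(lf)* muscle cells, against 0.265, 0.300 and 0.303 TPM in double mutant muscle cells. Its all cells levels were 0.319, 0.643 and 0.322 TPM in *daf-2(lf)*, against 6.12, 5.07 and 7.11 TPM in the double mutant. The direction was the same in both cell types and the interaction was 2.00 (SE 0.25, limma adjusted p = 4.78e-05). With a pseudocount of 0.1 it was 2.07, but the call was lost. *ins-7* (IV, 9682011 to 9682845), an insulin-like ligand that acts as an agonist of DAF-2, had 0 TPM in all *daf-2(lf)* muscle libraries and 0, 0.132 and 0.526 TPM in double mutant muscle cells, beside 1.94, 1.51 and 1.78 TPM in *daf-2(lf)* all cells, against 8.84, 6.45 and 7.0 TPM in double mutant all cells (1.35, SE 0.27, limma adjusted p = 0.00822, and 0.0908 with the replicate block within genotype). It was the only 1 of 31 insulin-like ligands tested to pass (3.23%, against 0.904% of all genes tested), and their median was -0.67. Its call was also lost under both other scalings.

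The 4 positive lectins were *clec-26* (1.69), *clec-28* (1.55), *clec-36* (1.33) and *clec-3* (1.02). *clec-28* had 0.162, 0.431 and 0.169 TPM in *daf-2(lf)* all cells, against 2.97, 2.42 and 2.72 TPM in double mutant all cells, and no muscle library above 0.0417 TPM. *clec-26* had 0.725, 1.09 and 0.802 TPM in *daf-2(lf)* all cells, against 7.32, 4.77 and 4.14 TPM in double mutant all cells, and lies next to *clec-36* on chromosome V, and reads shared between them were not examined. The limma adjusted p of *clec-36*, 0.017, was 0.147 with the block within genotype. *F49H6.5* had the largest of these interactions, 2.48 (SE 0.33, limma adjusted p = 8.55e-05), from 0.685, 0.247 and 0.292 TPM in *daf-2(lf)* all cells, against 12.16, 4.09 and 11.3 TPM in double mutant all cells. *C06B8.2* (2.29), *F19C7.2* (1.55), the O-acyltransferase gene *oac-20* (1.399), the F-box gene *fbxa-157* (1.205), the lipase gene *lips-6* (1.09) and *sdz-6* (1.06), named as a SKN-1-dependent zygotic transcript, followed. *C06B8.2*, *oac-20* and *clec-3* overlap a gene on the opposite strand, as 16 of the 113 negative genes overlap another gene, and their reads may not be separable. With the block within genotype the limma adjusted p was 0.0848 for *F19C7.2*, 0.0903 for *fbxa-157* and 0.147 for *lips-6*. *lips-6* was past the threshold in 8 of 22 alternatives.

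**Figure D4:**
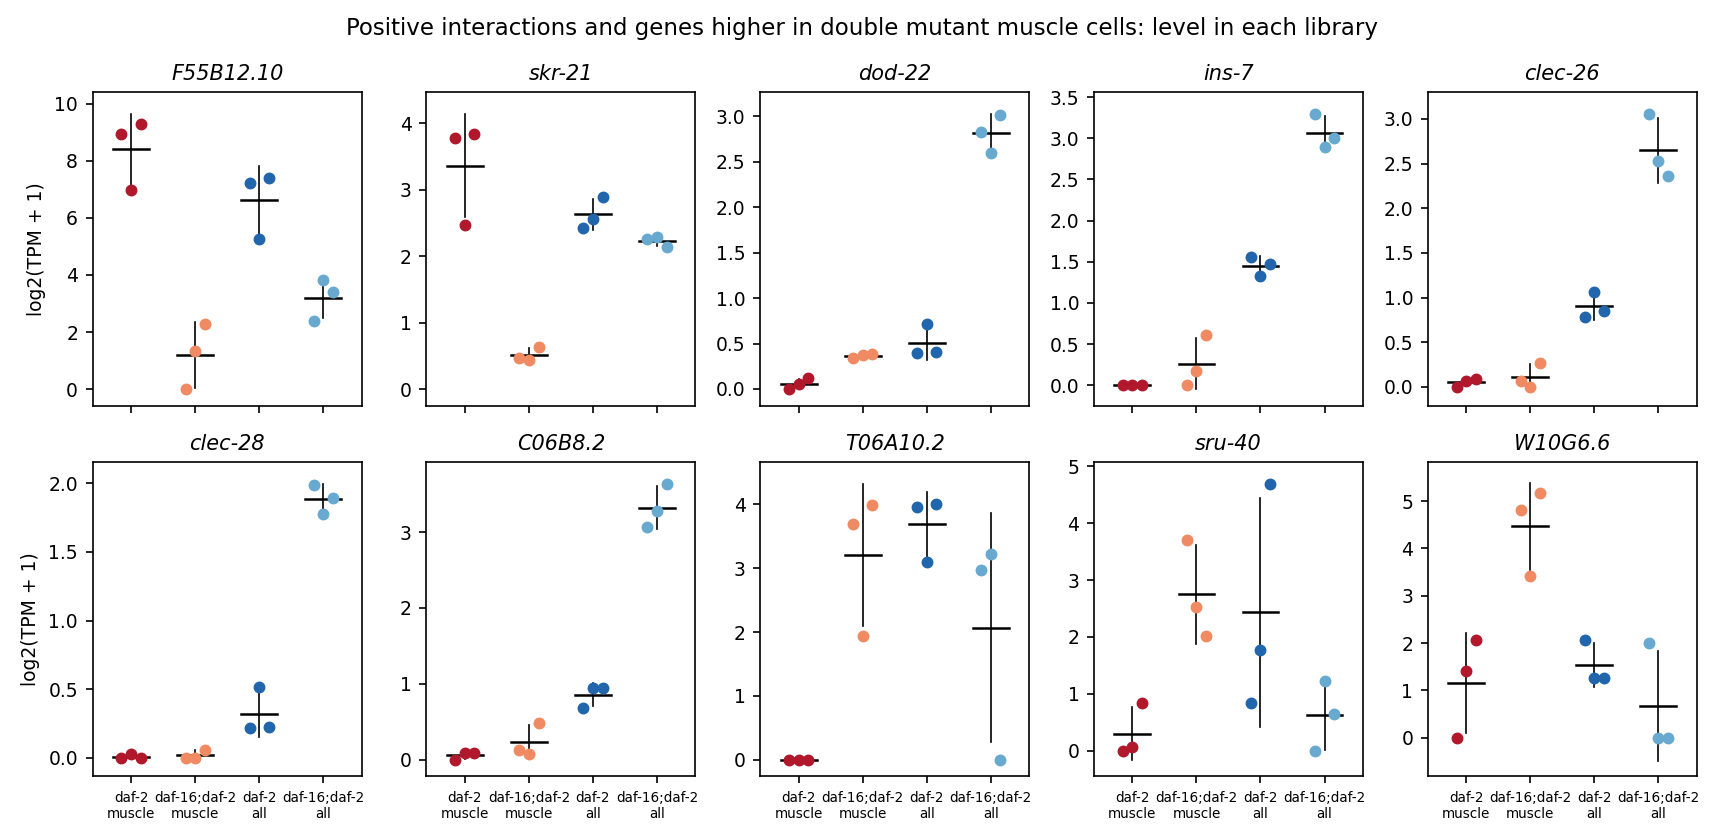
Levels, on the log2(TPM + 1) scale, of 7 genes with a positive interaction (*F55B12.10* to *C06B8.2*) and of *T06A10.2*, *sru-40* and *W10G6.6*, in muscle cells of *daf-2(lf)* and of the double mutant (marked daf-16;daf-2) and in all cells of *daf-2(lf)* and of the double mutant (points are libraries, thick lines means, thin lines SD, n = 3 each). *F55B12.10* and *skr-21* are highest in *daf-2(lf)* muscle cells, the next 5 genes in double mutant all cells, and *T06A10.2*, *sru-40* and *W10G6.6* are higher in double mutant than in *daf-2(lf)* muscle cells.

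For comparison with the lists, 0.904% of all genes tested passed in the interaction, 2.43% in all cells and 0.612% in muscle cells. Of 27 genes tested from the list of genes raised by DAF-16 in whole animals, only *nnt-1* was negative and 0 were positive, with a median of -0.64, although 12 passed in all cells and 2 in muscle cells. Over the alternatives 0 to 4 of them were negative. Of 9 genes tested from the list lowered by DAF-16, 2 were positive (*dod-22* and *ins-7*) and 0 negative, with a median of 1.52, and 0 to 5 were positive over the alternatives. Small heat shock proteins (12 tested), superoxide dismutases, catalases and peroxiredoxins (18), UDP-glucuronosyltransferases (58), lysozymes (14), proteasome subunits (33), cytosolic ribosomal proteins (81), major sperm proteins (30) and the insulin pathway genes (11) had 0 calls in either direction. Single calls came from 54 transthyretin-like proteins (*ttr-19*, -3.13), 20 cysteine and aspartyl proteases, 17 lipases and lipid-binding proteins and 99 F-box proteins. The 6 vitellogenins, yolk protein genes of the intestine, had the highest median of any list, 2.65, with 0 calls, while 4 of the 6 passed in all cells, where their median was -2.69. With array weights 3 were positive, and 1 each without *daf-2(lf)* all cells replicate 1 or double mutant all cells replicate 2, and 2 without double mutant all cells replicate 1. *vit-2* was at 6.83, 1.88 and 0.368 TPM in *daf-2(lf)* muscle cells, against 1.17, 0.262 and 15.3 TPM in double mutant muscle cells, beside 81.9, 0.460 and 11.7 TPM in *daf-2(lf)* all cells, against 41.8, 46.2 and 615 TPM in double mutant all cells. Double mutant replicate 3 was far above the others of its group in both cell types, and the *vit-2* groups overlapped in both.

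**Figure D5:**
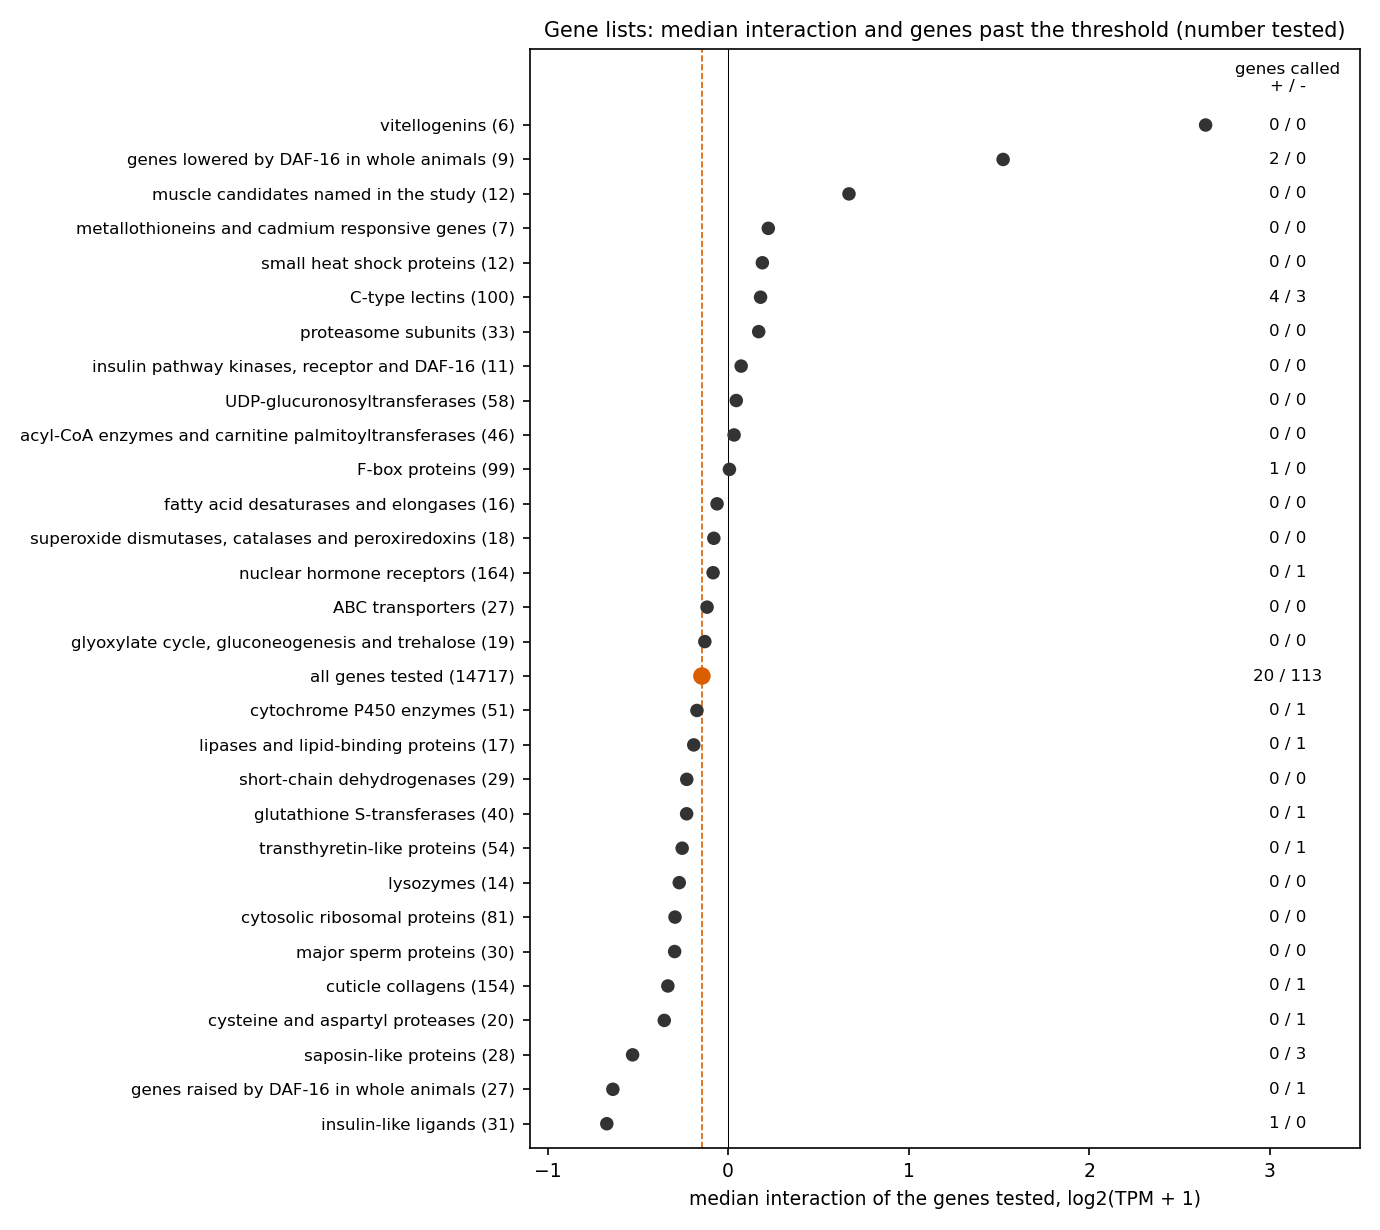
Median interaction, on the log2(TPM + 1) scale, of the genes tested in each gene list (number tested in brackets), with the number of genes past the threshold in the positive and negative direction at the right. The median of all 14717 genes, -0.15, is the dashed line, most lists lie close to it, and the vitellogenins (2.65) and the genes lowered by DAF-16 (1.52) lie highest.

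The muscle candidates named in the study were chosen on these libraries, so their values are no independent evidence. The 14 genes listed here include *alh-2* and *rap-3*, which the study itself set aside for low reads. *tiar-3* was not matched and *alh-2* was below the filter. Of the 12 tested, *rap-3* among them, 4 passed in muscle cells and 2 in all cells, where 0.612% and 2.43% of all genes tested did. In the interaction 0 of the 12 passed in either direction, with a median of 0.67, where 0.904% of all genes tested passed. The all cells libraries hold muscle too, so a gene changed only in muscle differs there as well, and this count does not test muscle specificity. The study also used DAF-16a binding in muscle and intestine, RT-qPCR of *C54F6.5* and *cex-1*, and reporters of these and *mlcd-1*, none of which was examined here. *C54F6.5*, an uncharacterized gene, had 1258, 301 and 897 TPM in *daf-2(lf)* muscle cells, against 12, 15.3 and 41.6 TPM in double mutant muscle cells, and it had 122.9, 56.8 and 85.7 TPM in *daf-2(lf)* all cells, against 7.11, 11.2 and 17.6 TPM in double mutant all cells. The groups overlapped in neither cell type, and the interaction was 2.27 (SE 0.90, 95% interval 0.41 to 4.14, limma adjusted p = 0.698). *cex-1*, which encodes a calexcitin-like calcium-binding protein, had 599, 724 and 993 TPM in *daf-2(lf)* muscle cells, against 114, 212 and 215 TPM in double mutant muscle cells, beside overlapping levels of 91.8, 116 and 219 TPM in *daf-2(lf)* all cells, against 49.4, 97.6 and 122.4 TPM in double mutant all cells. Its interaction was 1.46 (SE 0.47, 95% interval 0.48 to 2.44, limma adjusted p = 0.343), and with the replicate block within genotype the adjusted p was 0.0364. *mlcd-1*, the malonyl-CoA decarboxylase gene, had 14.7, 13.3 and 15.4 TPM in *daf-2(lf)* muscle cells, against 2.28, 6.98 and 8.49 TPM in double mutant muscle cells, with overlapping all cells groups (interaction 1.12, 95% interval 0.01 to 2.23, limma adjusted p = 1). The interactions of the others were 0.97 for the actin gene *act-2*, 0.70 for *unc-78*, 0.67 for *gstk-2* and for *ksr-1*, 0.46 for *F23D12.7*, 0.28 for *Y43F8B.1*, 0.17 for the Go protein gene *goa-1*, -0.04 for the aquaporin gene *aqp-2* and -0.14 for *rap-3*, each with limma adjusted p = 1. The sign of *aqp-2* turned with median-of-ratios scaling (0.18) and that of *goa-1* with array weights.

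*sod-3*, the manganese superoxide dismutase gene that serves as the standard DAF-16 reporter, differed between the genotypes in both cell types. It had 221, 75.6 and 207 TPM in *daf-2(lf)* muscle cells, against 1.05, 1.71 and 2.04 TPM in double mutant muscle cells, beside 89.4, 37.7 and 99.0 TPM in *daf-2(lf)* all cells, against 1.52, 4.43 and 2.47 TPM in double mutant all cells. The interaction, 1.61, had a 95% interval from -0.38 to 3.6 (limma adjusted p = 1), so the data fix neither a difference between cell types nor its absence. The whole *daf-16* gene, which includes transcripts still listed above 0 in the mutant, had an interaction of 1.23 (limma adjusted p = 0.824), and *daf-2* one of -0.26.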

How the data were processed

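RNA of sorted cells was measured in 24 libraries in 8 groups of genotype and cell type. The authors deposited transcript abundances in TPM, estimated with Salmon 1.4.0 on WBcel235 per the processing notes. TPM is scaled to a fixed total within a library and carries no depth, so no counting interval can be given. The sources used here name a stranded kit and a low-input kit but not which library had which.

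Transcripts (35749, of which 31176 matched the annotation by exact name, 4485 by sequence name and 88 not at all) were summed to 21982 genes. A gene was kept if 3 or more libraries had 1 TPM or more, which left 14717, tested on log2(TPM + 1). A log2 difference on this scale understates the change of low genes. One limma model (3.58.1, R 4.3.3) with 8 group means and an abundance trend was fitted to all 24 libraries, after a test on simulated data, and p-values were adjusted by Benjamini-Hochberg over all genes tested. Gene lists were described by counts and medians only.

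Named genes were the 15 largest interactions in each direction among those past the threshold, every list member past it, the muscle candidates, *sod-3*, *daf-16* and *daf-2*. Genes outside this rule, such as *K06H6.2*, *gmd-2* and *C14C6.6*, were picked after their values were seen, also where the text does not say so. The members and lists were chosen with earlier results of these data known. Listed under other names or not found were *hsp-16.11*, *hsp-16.49*, *dod-8* and *tiar-3*, and *alh-2* was below the filter.

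Replicate numbers pair the 2 cell types within a genotype, since all cells were taken from the same dissociation. Deviations of same-numbered muscle and all cells libraries from their group means correlated in all 6 pairs (r 0.166 to 0.441). Between genotypes r was -0.277 to 0.550, so numbers were not taken as pairs there. Alternatives were other scalings, pseudocount, filters, no trend, array weights, replicate blocks, the 12 libraries alone, and leaving out libraries. The main model leaves this pairing out, so its p-values treat paired libraries as independent and rest on a spread pooled over all 24 libraries. Of its 133 genes, 100 also passed with the replicate block within genotype and 63 with only the 12 libraries. Promoter sequences were not used here, and the planned motif search was not run.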

Additional observations from a re-analysis of the deposited data

Results flagged for a closer look

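The interaction is itself a test of a difference between groups, so every gene past its threshold qualifies, and the values of those named by the rule for named genes are given here. In 20 genes the DAF-16 difference in muscle cells lay above that in all cells, and in 113 it lay below, by limma with Benjamini-Hochberg adjustment.

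The named positive values on the log2(TPM + 1) scale were 3.78 for *F55B12.10*, 2.48 for *F49H6.5*, 2.45 for *skr-21*, 2.29 for *C06B8.2*, 2.00 for *dod-22*, 1.69 for *clec-26*, 1.55 for *clec-28*, 1.55 for *F19C7.2*, 1.399 for *oac-20*, 1.35 for *ins-7*, 1.33 for *clec-36*, 1.205 for *fbxa-157*, 1.09 for *lips-6*, 1.06 for *sdz-6* and 1.02 for *clec-3*. In all but *F55B12.10* and *skr-21* the muscle levels were under 1 TPM in all 6 libraries.

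The named negative values were -6.83 for *C41G6.13*, -6.66 for *Y57E12B.1*, -6.20 for *scl-12*, -6.01 for *Y71F9AM.8*, -5.97 for *Y60C6A.3* and for *Y60C6A.2*, -5.35 for *scl-11*, -5.01 for *scl-13*, -4.90 for *F20E11.17*, -4.83 for *T06A10.2*, -4.78 for *F57F4.2*, -4.66 for *ZK355.3*, -4.57 for *spp-29* and for *cut-1*, -4.55 for *C06H5.11* and -4.50 for *col-108*. They were -3.72 for *clec-101*, -3.36 for *asp-9*, -3.21 for *spp-20*, -3.13 for *ttr-19*, -2.81 for *clec-249*, -2.57 for *nhr-155*, -2.55 for *gst-29*, -2.52 for *nnt-1*, -2.21 for *spp-11*, -1.51 for *cyp-33B1*, -1.48 for *clec-76* and -1.36 for *lipl-4*. In *T06A10.2* the estimate was of larger size in muscle cells, and in the others named here it was of larger size in all cells.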

How the results depend on the processing

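The count of 133 genes (20 positive, 113 negative) moved with the scale, the filter and the weights. It was 61 with quantile normalization (47 negative), 62 with a pseudocount of 0.1 (1 positive, 61 negative), 238 without a filter (55 and 183), 63 with a minimum of 4 TPM (7 and 56), 673 with array weights (110 and 563) and 76 with only the 12 libraries (9 and 67). The positive count was 12 without an abundance trend and 12 with the replicate block within genotype, which gave 109 genes in all, 100 of them shared. That block changed no call among the named genes beyond those whose blocked value stands beside the result. With the number as a block across genotypes the count was 142. Of the 20 positive genes, 6 also passed with quantile normalization, which called 14 positive genes. With median-of-ratios scaling, which called 21, 14 of the 20 also passed. Leaving out 1 library gave 117 to 158 genes, 14 to 32 positive and 101 to 138 negative, and the count of 32 came without double mutant all cells replicate 1. The sign of the aqp-2 interaction (-0.04) turned with median-of-ratios scaling (0.18), and without 1 library its value ranged over -0.39 to 0.14. That of the goa-1 interaction (0.17) turned with array weights (-0.00487), and without 1 library it ranged over -0.16 to 0.34. *lipl-4* and *cut-1* lost their calls in most alternatives. Depth was unknown, so low muscle values have no stated precision. The planned motif search was not run.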
